A study of Mus musculus with 22 samples.

Results

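The 9 genes described here encode small protease inhibitors or relatives of such inhibitors, and were followed in neutrophils sorted from the terminal ileum of mice after allogeneic haematopoietic cell transplantation (allo-HCT). They are the stefin A copies Stfa1, Stfa2, Stfa3, BC100530 and Gm5483, the related stefin B gene Cstb, and Slpi, Wfdc17 and Wfdc21, which carry the WAP four-disulfide core (WFDC) fold. They were taken by name from 23091 gene rows, and 8 of the 9 had a row in at least 1 of the 22 tables. The list was chosen by family with the fold changes between acute graft-versus-host disease (aGVHD) and control libraries of these same data in view, in which Stfa2 and Wfdc17 had been named as higher in aGVHD. The values of those genes in that contrast are therefore given without a test, and no value of the contrast is independent support for the choice of the list.

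The aGVHD group comprised 12 libraries and the control group 10. Recipients were BALB/c mice aged 7 to 9 weeks that received a lethal irradiation split into 2 doses of 5 Gy. Both groups were then given 5000000 bone marrow cells from female C57BL/6N donors aged 7 to 10 weeks, and only the aGVHD group also received 400000 donor T cells, which cause the disease by attacking recipient tissue. Donor-derived cells (CD45+H2kb+CD11b+Ly6G+, H2kb being the donor's class I molecule) were sorted on day 21 from 4 cm segments of ileum and sequenced by CEL-Seq2, a plate method in which molecular identifiers are used to count transcripts at their 3′ ends. Control mice were irradiated and grafted too, so neither group is an untreated gut. The gate was set for donor cells, but cells with epithelial markers were also found, so donor origin was not shown for every cell compared. The labels tie no library to a mouse, so the spread between libraries may in part be technical.

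Barcodes with a rounded total of at least 500 were kept as cells, which left 1025 aGVHD and 358 control cells of 4224 barcodes. Libraries held 74 to 95 kept cells in aGVHD and 11 to 60 in controls, with 69294 to 239283 and 9180 to 134918 transcripts of named genes. Control replicates 5, 6, 9 and 10 had fewer than 20 cells each. The lowest control values given below for all gated cells rest wholly or in part on these libraries, also where this is not repeated. Library titles fall into a set with a date (8 aGVHD, 6 control) and a set marked G1 (4 aGVHD, 4 control), which was used as a covariate. The gate's label was checked against marker genes: the summed level of 23 neutrophil markers averaged 41080 CPM (counts scaled to a common total of named genes) in aGVHD and 15851 CPM in controls. Cells of other kinds were present. The summed level of 15 epithelial markers averaged 2390 CPM in aGVHD and 7498 CPM in controls (medians 352 and 1861 CPM). That of 10 B or plasma cell markers averaged 5924 CPM in aGVHD and 8535 CPM in controls. Its medians were 123 and 1434 CPM, and its highest libraries reached 68460 CPM in aGVHD and 67583 CPM in controls. The 10 T or NK cell markers averaged 75.4 CPM in aGVHD and 217 CPM in controls. The 14 macrophage/monocyte markers averaged 3452 CPM in aGVHD and 3725 CPM in controls, and the 3 erythroid markers 489 CPM in aGVHD and 273 CPM in controls. The 10 dendritic cell markers summed to 431 CPM in aGVHD and 1125 CPM in controls. Of these 3 were tested and 2 were called lower in aGVHD, against 4.27% of all 1757 genes tested. Irf8 fell by 1.33 and Tcf4 by 1.35 on the log2 scale (limma adjusted p = 0.00628 and 0.0227). The part of these cells in the results below was not tested in the summed cells. On average 50.1 ± 15.4% of aGVHD cells and 38.0 ± 10.8% of control cells fell into neutrophil-like clusters (SD, n = 12 and 10 libraries).

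Stefins are cytoplasmic members of the cystatin family that bind papain-like cysteine proteases such as the cathepsins, blocking the active site reversibly. Mice carry several tandem copies of stefin A on chromosome 16, some of which are abundant in maturing neutrophils, whereas stefin B is made by most cell types. Slpi is a secreted inhibitor of neutrophil elastase and cathepsin G made by neutrophils and by epithelium, and Wfdc17 is best known from activated macrophages.

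In the GENCODE M21 annotation of GRCm38 the stefin A copies lie side by side on chromosome 16, each with 3 exons. Gm5483, called Cstdc4 in RefSeq, lies at chr16:36184212-36188111 (plus strand) and Stfa1 at chr16:36276951-36285373 (plus). BC100530, called Cstdc5 in RefSeq, lies at chr16:36359382-36367748 (minus), Stfa2 at chr16:36403992-36408457 (minus) and Stfa3 at chr16:36450537-36455392 (minus). Wfdc17 (chr11:83703991-83706268, plus) and Wfdc21 (chr11:83746940-83752642, plus) are close to each other on chromosome 11. Slpi (chr2:164354070-164389095, minus) and Cstb (chr10:78425669-78427622, plus) stand elsewhere. The sources used here do not give the build of the tables, and the genes were matched by name only.

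Because reads from one copy could be counted for another, the likeness of the copies bears on every stefin value. The same stretch of 153 coding bases, from base 31 of Stfa2 counted from the A of its start codon, is shown for the 5 copies from 5′ to 3′. Capitals in Stfa2 mark bases at which at least 1 other copy differs, and capitals in the others mark a difference from Stfa2.
Stfa2: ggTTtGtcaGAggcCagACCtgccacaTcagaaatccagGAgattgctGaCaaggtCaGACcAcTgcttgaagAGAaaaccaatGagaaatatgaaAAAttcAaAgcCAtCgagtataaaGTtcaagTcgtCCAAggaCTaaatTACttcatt
Gm5483: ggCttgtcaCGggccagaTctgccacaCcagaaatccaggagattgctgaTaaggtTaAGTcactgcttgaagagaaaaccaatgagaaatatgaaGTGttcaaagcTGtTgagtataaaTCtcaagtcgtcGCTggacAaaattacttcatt
BC100530: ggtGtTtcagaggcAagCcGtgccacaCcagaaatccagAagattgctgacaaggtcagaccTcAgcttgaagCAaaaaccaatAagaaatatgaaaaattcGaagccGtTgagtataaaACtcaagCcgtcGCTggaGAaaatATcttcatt
Stfa3: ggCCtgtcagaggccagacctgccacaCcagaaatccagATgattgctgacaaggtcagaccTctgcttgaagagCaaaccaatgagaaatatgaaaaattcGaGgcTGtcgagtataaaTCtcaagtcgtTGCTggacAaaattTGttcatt
Stfa1: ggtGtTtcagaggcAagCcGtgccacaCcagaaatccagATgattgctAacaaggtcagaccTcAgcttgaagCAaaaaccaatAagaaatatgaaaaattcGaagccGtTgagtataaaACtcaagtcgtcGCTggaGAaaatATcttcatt

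Over this stretch Gm5483 differed from Stfa2 at 22 bases, BC100530 at 25, Stfa3 at 20 and Stfa1 at 26. Over the whole aligned coding sequence Stfa2 was 82.8% identical to Gm5483, with a longest shared run of 35 bases, and 60.5% identical to Cstb. Stfa1 and BC100530 were the exception, with 98.0% identity, 6 differing bases and a shared run of 100 bases. Over the last 200 bases of the transcript, near which CEL-Seq2 reads start, Stfa1 and BC100530 were 98.5% identical, whereas Stfa2 and Gm5483 were 77.3% identical. Stfa1 had no row in any of the 22 tables, so reads from Stfa1 could not be told from those counted as BC100530. The copies were therefore also added to 1 stefin A level, which does not depend on how reads were split among them. Wfdc17 and Wfdc21 shared 60.2% of aligned coding bases.

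The sum of the stefin A copies is described first. Per library it was 122, 434 and 950 CPM (lowest, median and highest of 12) in aGVHD, against 0, 94.0 and 199 CPM in the 10 control libraries. In 11 of 12 aGVHD libraries the sum stood above every control library, and the groups overlapped only through aGVHD replicate 2, at 122 CPM. Of all 1757 genes tested, 0.341% had at least 11 aGVHD libraries above every control library. The 3 control libraries with a sum of 0 were replicates 5, 9 and 10, with 11 or 12 cells each, where 3 transcripts would have been between 160 and 327 CPM, so their zeros set only an upper limit. The fitted difference was 2.09 on the log2 scale (SE 0.32), given as a description because the sum contains Stfa2, which helped to choose the list. In this fit 7.92% of 1756 genes were called and 3.64% were called higher. Without Stfa2, a choice made after seeing the data, the sum of the other copies differed by 2.49 (SE 0.45). That sum reached the filter with 11 aGVHD libraries and 1 control library. It was tested only because it is high in aGVHD, so its difference is also a description.

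The difference of the copies other than Stfa2 did not pass in libraries with at least 20 cells, at 2.29 (limma adjusted p = 0.101). Nor did it pass in the dated libraries alone, at 2.60 (limma adjusted p = 0.0732), or in the G1 libraries alone, at 1.97 (limma adjusted p = 0.317). For the whole sum the difference was 1.73 in libraries with at least 20 cells, 1.87 among dated titles and 2.07 among G1 titles. The mean sum was 583 CPM in aGVHD and 101 CPM in control libraries of the dated set, and 316 CPM in aGVHD and 49.6 CPM in control libraries of the G1 set. The difference of the whole sum between the sets was 0.23 (SE 0.72).

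**Figure D1:**
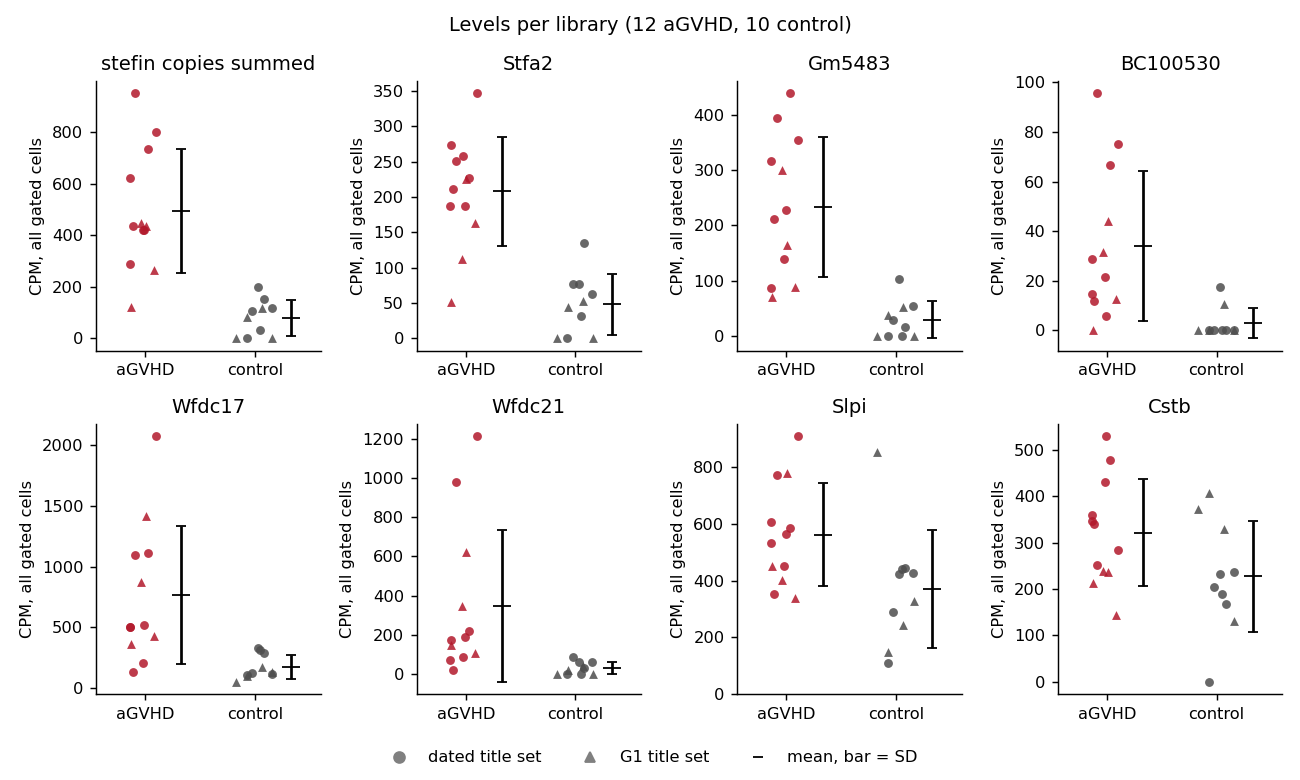
Level in CPM of the stefin A sum and of 7 genes, 1 point per library (circles for the dated set, triangles for G1), with aGVHD (12 libraries) left of control (10 libraries) and the mean and SD drawn beside the points. The stefin A sum averaged 494 ± 239 CPM in aGVHD and 80.4 ± 70.1 CPM in controls, and Slpi and Cstb overlapped far more between the groups.

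Gm5483, a stefin A copy named only by its gene model, was the copy with the most transcripts in aGVHD. It had 70.9, 220 and 439 CPM (lowest, median and highest) in aGVHD libraries, against 0, 22.9 and 104 CPM in control libraries. Control replicate 2 gave the 104 CPM, and each of the other 9 control libraries lay below the lowest aGVHD library. Among these, replicates 5, 6, 9 and 10 held no Gm5483 transcript. There 3 transcripts would have been 94.0 to 327 CPM, so their zeros set only an upper limit. Its log2 difference was 2.31 (SE 0.40), in a fit of 1757 genes of which 8.03% were called, 3.76% higher and 4.27% lower. Gm5483 reached the filter on low values, 88.5 CPM in at least 10 libraries, with 9 aGVHD libraries and 1 control library. It was tested only because it is high in aGVHD, so its difference is given as a description. In 6 of the 22 fits without 1 library it was below the filter. The difference did not pass in libraries of at least 20 cells, at 2.13 (limma adjusted p = 0.0979), in the dated set, at 2.40 (limma adjusted p = 0.0621), or in the G1 set, at 1.88 (limma adjusted p = 0.336).

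Stfa2, the copy with the most transcripts in controls, had 51.6, 218 and 347 CPM (lowest, median and highest) in aGVHD libraries, against 0, 48.8 and 134 CPM in control libraries. Its aGVHD values were above every control value in 10 libraries, which 0.797% of all tested genes matched or exceeded, the exceptions being replicates 2 and 3. Its log2 difference was 1.52 (SE 0.28), given as a description.

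BC100530, whose counts may include Stfa1, had 66 transcripts in aGVHD and 3 in controls. Its level was 0, 25.2 and 95.6 CPM (lowest, median and highest) in aGVHD libraries, against 0, 0 and 17.3 CPM in control libraries. It was detected in 11 of 12 aGVHD and 2 of 10 control libraries, and it fell below the filter on low values. With no such filter its difference was 1.29 (limma adjusted p = 0.042), in a fit in which the median of all genes shifted to −0.67.

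Stfa3 was seen in 2 libraries only. It gave 35 transcripts in 3 cells of aGVHD replicate 6, 30 of them in 1 cell, and 5 transcripts in 3 cells of aGVHD replicate 7. No control cell held a Stfa3 transcript. The Stfa3 level thus rests on a handful of cells of 2 libraries and carries no comparison.

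**Figure D2:**
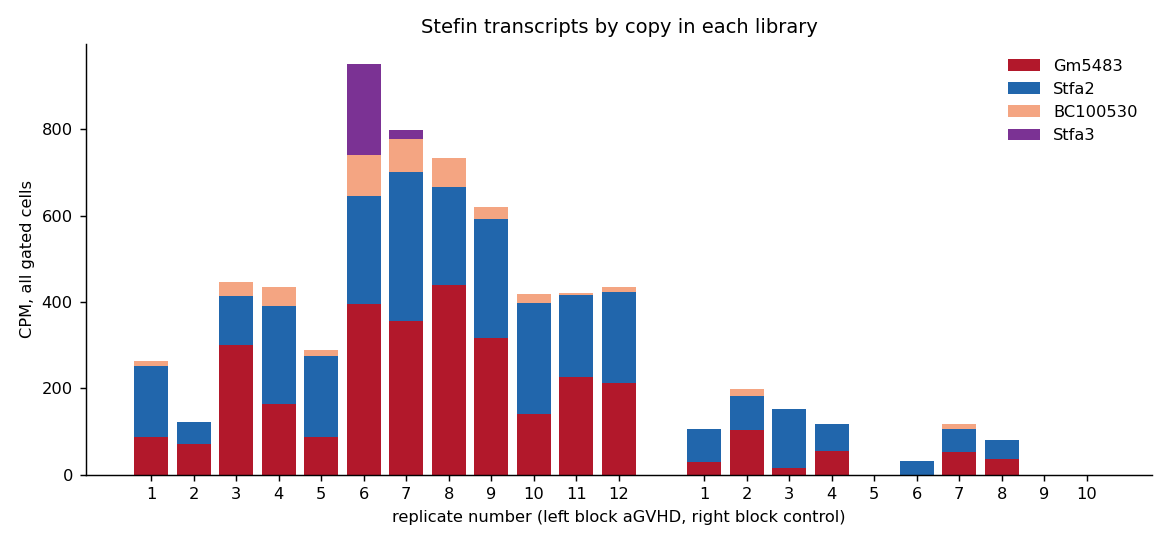
Level in CPM of each stefin A copy, stacked, in each library, with the 12 aGVHD libraries left of the 10 control libraries and replicate numbers on the x axis. Gm5483 and Stfa2 together make up most of every bar, Stfa3 shows in aGVHD replicates 6 and 7 only, and control replicates 5, 9 and 10 are at 0.

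Pooled over all kept cells, Gm5483 made up 47.4% of 884 transcripts of the sum in aGVHD and 37.5% of 88 in controls. Stfa2 made up 40.6% in aGVHD and 59.1% in controls. These shares are descriptions, since they pool cells of unequal libraries. BC100530 contributed 7.47% of the aGVHD sum and 3.41% of the control sum, and Stfa3 contributed 4.52% of the aGVHD sum and 0 of the control sum. Transcripts were spread over many cells: the richest aGVHD cell held 59 of 884 transcripts, or 6.67%, and 33 of the 240 aGVHD cells with any stefin A transcript held 50% of them. In controls 11 of 48 such cells held 50%.

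The promoter of Gm5483 is shown because this gene had the largest fitted difference of the copies and a start site that the annotations share. It is the RefSeq (GRCm38.p6) sequence of the 250 bases before the start, plus strand, chr16:36183962-36184211, with matches to GAGGAA on the opposite strand in capitals.
Gm5483 promoter: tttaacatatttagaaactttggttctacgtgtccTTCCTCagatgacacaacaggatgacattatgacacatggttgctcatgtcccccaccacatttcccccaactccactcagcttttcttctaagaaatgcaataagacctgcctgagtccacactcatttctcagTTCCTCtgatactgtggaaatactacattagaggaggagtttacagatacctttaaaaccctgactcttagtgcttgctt

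GAGGAA, the core letters bound by the myeloid factor PU.1, was found 215 and 80 bases before the start of Gm5483. At least 1 match on either strand was present in 6 of the 7 members with a RefSeq promoter (Stfa1, Stfa2, Stfa3, BC100530, Gm5483 and Wfdc17), against 23.3% of 32851 promoters of the same length. The 5 stefin A promoters were 72.6 to 96.1% identical to each other, so they are not separate observations. TTNNGCAA, letters within a C/EBP site, matched in Stfa1, BC100530 and Slpi, against 9.56% of all promoters. Slpi had no GAGGAA in this window. A match describes letters only, and no binding was measured.

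Wfdc17 had the highest counts of the WFDC genes. Its level was 129, 511 and 2073 CPM (lowest, median and highest) in aGVHD libraries, against 53.3, 129 and 328 CPM in control libraries. The aGVHD values spread over a wide range, with the highest in replicate 7. Of the 12 values, 10 were above every control library, which 0.797% of all tested genes matched or exceeded. The log2 difference was 1.71 (SE 0.45), given as a description. It was 1.34 within the dated set.

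Wfdc21, its neighbour on chromosome 11, had 23.5, 180 and 1212 CPM (lowest, median and highest) in aGVHD libraries, against 0, 27.9 and 87.1 CPM in control libraries. In 9 aGVHD libraries it stood above every control library. Of the tested genes, which passed a filter on low values that Wfdc21 did not, 1.48% matched or exceeded this. Replicates 6 and 7, at 980 and 1212 CPM, were far above the other aGVHD libraries. Wfdc21 did not pass the filter on low values, since 9 aGVHD and 0 control libraries reached the 88.5 CPM that 10 had to reach. Where cells needed at least 1000 transcripts it passed, with a difference of 2.40 (SE 0.74), given as a description because it passed through the aGVHD libraries.

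Slpi, the elastase inhibitor, was high in both groups. It had 339, 549 and 911 CPM (lowest, median and highest) in aGVHD libraries, against 109, 376 and 853 CPM in control libraries. Only aGVHD replicate 7 was above every control library, and the highest control value came from replicate 9, with 12 cells. The log2 difference was 0.61 (SE 0.24, limma adjusted p = 0.108), and with no filter on low values it was 0.92 (limma adjusted p = 0.0186). That last fit called 5237 genes and had a median of −0.67 over all genes.

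Cstb, the stefin of most cell types, had 144, 313 and 529 CPM (lowest, median and highest) in aGVHD libraries, against 0, 218 and 408 CPM in control libraries. The groups overlapped widely, with 3 aGVHD libraries above every control. The log2 difference was 0.25 (SE 0.24, limma adjusted p = 0.585). Cstb differed in direction between the title sets. Its mean was 378 CPM in aGVHD and 171 CPM in controls of the dated set, and 208 CPM in aGVHD and 310 CPM in controls of the G1 set. The difference was 0.69 (SE 0.24) in the dated set and −0.64 (SE 0.33) in the G1 set, and the test of the difference between sets gave −1.45 (SE 0.44, limma adjusted p = 0.448, unadjusted p = 0.00265).

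**Figure D3:**
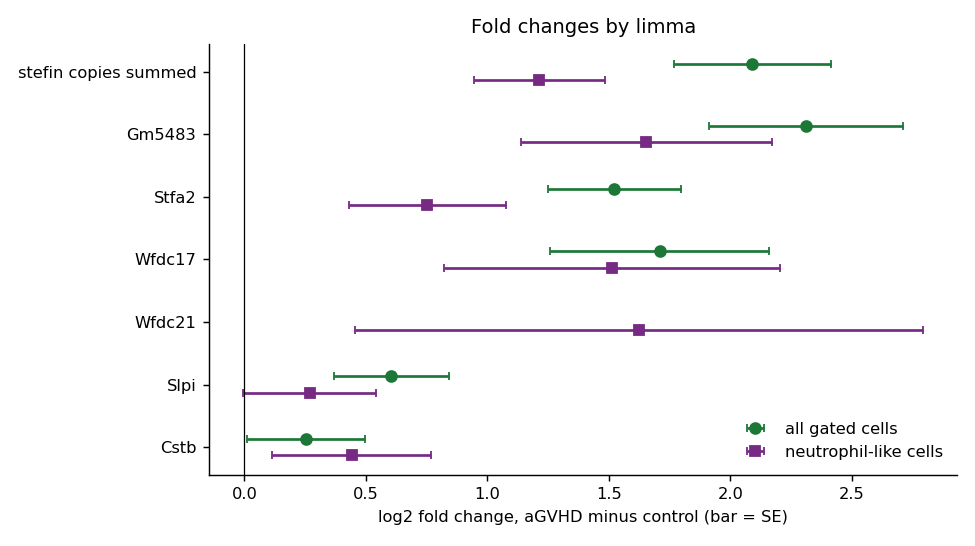
Fitted log2 difference, aGVHD minus control, for the stefin A sum and 6 genes in all gated cells (circles) and in neutrophil-like cells (squares), with bars of 1 standard error. In all gated cells the stefin A sum stood at 2.09 and Cstb at 0.25, and in neutrophil-like cells they stood at 1.21 and 0.44.

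In summed cells, fewer cells of a type and less RNA per cell cannot be told apart. The neutrophil marker sum given above was also higher in aGVHD. Of the 17 neutrophil markers tested 8 were called higher and 0 lower, against 3.76% higher and 4.27% lower of all 1757 genes tested. The comparison was therefore repeated in neutrophil-like cells, taken from clusters made without the members or any other stefin, cystatin or Wfdc gene. At least 10 such cells were present in all 12 aGVHD libraries (515 cells) and in 6 control libraries (121 cells).

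Within neutrophil-like cells the stefin A sum averaged 833 ± 277 CPM in aGVHD and 388 ± 121 CPM in controls (SD, n = 12 and 6 libraries). Its range was 433 to 1353 CPM in aGVHD and 189 to 528 CPM in controls, so the groups overlapped at the low end of aGVHD. The fitted difference was 1.21 on the log2 scale (SE 0.27), again a description because the sum contains Stfa2. In this fit 4 of 673 genes were called, or 0.594%. The 0.149% called higher was the sum row itself, so it is no share of other genes. With the copies as single rows 0 of 674 genes were called higher. Without Stfa2 the difference was 1.85 and did not pass (limma adjusted p = 0.261). That sum reached the filter on low values, here 273 CPM in at least 6 libraries, with 9 aGVHD and 0 control libraries. It was tested only because it is high in aGVHD, so this too is a description. Without the cluster of cells with granule genes the difference was 0.72 (SE 0.30) for the whole sum, and 1.23 for the copies other than Stfa2 (limma adjusted p = 0.266). Gm5483 averaged 385 ± 141 CPM in aGVHD and 134 ± 81.3 CPM in controls, a difference of 1.65 (SE 0.52, limma adjusted p = 0.189). Gm5483 reached the filter with 8 aGVHD and 0 control libraries, so its difference is a description as well. For Stfa2 the means were 364 ± 134 CPM in aGVHD and 244 ± 123 CPM in controls, with a difference of 0.75 (SE 0.32).

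The WFDC genes differed less clearly in neutrophil-like cells. Wfdc17 averaged 1088 ± 722 CPM in aGVHD and 359 ± 267 CPM in controls, a difference of 1.51 (SE 0.69). Wfdc21 averaged 559 ± 553 CPM in aGVHD and 179 ± 139 CPM in controls, a difference of 1.62 (SE 1.17, limma adjusted p = 0.564). Wfdc21 reached the filter with 7 aGVHD libraries and 1 control library, so its difference is a description. Slpi averaged 893 ± 167 CPM in aGVHD and 958 ± 651 CPM in controls, with a fitted difference of 0.27 (SE 0.27, limma adjusted p = 0.688), so the plain means and the fit point opposite ways. Cstb averaged 305 ± 135 CPM in aGVHD and 324 ± 220 CPM in controls, with a fitted difference of 0.44 (SE 0.33, limma adjusted p = 0.567), again with the plain means the other way. In this fit limma called 3 of 674 genes, or 0.445%, and 87 genes had an unadjusted p under 0.05.

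The members were not spread evenly over the neutrophil-like clusters. Counts were pooled there over the cells of both groups, so the intervals are exact Poisson 95% intervals that cover counting error only, and the cluster values are descriptions. Cluster 8, led by the secondary granule genes Ngp, Camp and Ltf that mark maturing neutrophils, comprised 97 aGVHD and 3 control cells. Its stefin A sum was 1714 CPM (1561 to 1879), its Wfdc17 level 2658 CPM (2466 to 2860) and its Wfdc21 level 2021 CPM (1854 to 2199). Cluster 0, led by Trim11, H2-Q10 and Slfn4, had a stefin A sum of 827 CPM (705 to 965), and cluster 4, led by G0s2 and Snai1, had 600 CPM (495 to 721). The lowest sums were in cluster 3 (Ffar2, Gbp5, Csf1), at 237 CPM (168 to 323), and in cluster 1 (Siglecf, Il1r2, Mmp9), at 230.3 CPM (170 to 304), whose intervals overlap.

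Slpi followed the same order of clusters, with 1437 CPM (1297 to 1589) in cluster 8 and 371 CPM in cluster 1. Cstb did not, with 198 CPM (149 to 259) in cluster 8 and 446 CPM (361 to 546) in cluster 1. In cluster 0, second in stefin A, Cstb was at 373 CPM (292 to 469), an interval that overlaps that of cluster 1.

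Cluster 8 held 59.1% of the 760 stefin A transcripts of aGVHD neutrophil-like cells and 14.5% of the 62 in controls. For Wfdc21 it held 77.6% of 688 aGVHD transcripts and 24% of 25 control transcripts. For Cstb it held 20.9% of 254 aGVHD transcripts and 0 of 52 control transcripts. The stefin A copies and Wfdc21 were thus more concentrated in the granule gene cluster than Cstb was.

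Within a cluster the groups were set side by side as pooled values. In cluster 0 the stefin A sum was 901 CPM (763 to 1058) in 129 aGVHD cells and 409 CPM (211 to 714) in 24 control cells. In cluster 1 it was 276 CPM (202 to 369) in 112 aGVHD cells and 64.8 CPM (13.4 to 189) in 30 control cells. In these clusters the counting intervals of the groups do not overlap. In cluster 4 the sum was 634 CPM (505 to 784) in aGVHD and 523 CPM (353 to 746) in controls, and in cluster 3 it was 277 CPM (188 to 392) in aGVHD and 152 CPM (65.5 to 299) in controls. In cluster 8 it was 1712 CPM (1557 to 1878) in 97 aGVHD cells and 1852 CPM (847 to 3515) in 3 control cells. The intervals of clusters 3, 4 and 8 overlap between groups, and variation between libraries adds to all of them.

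**Figure D4:**
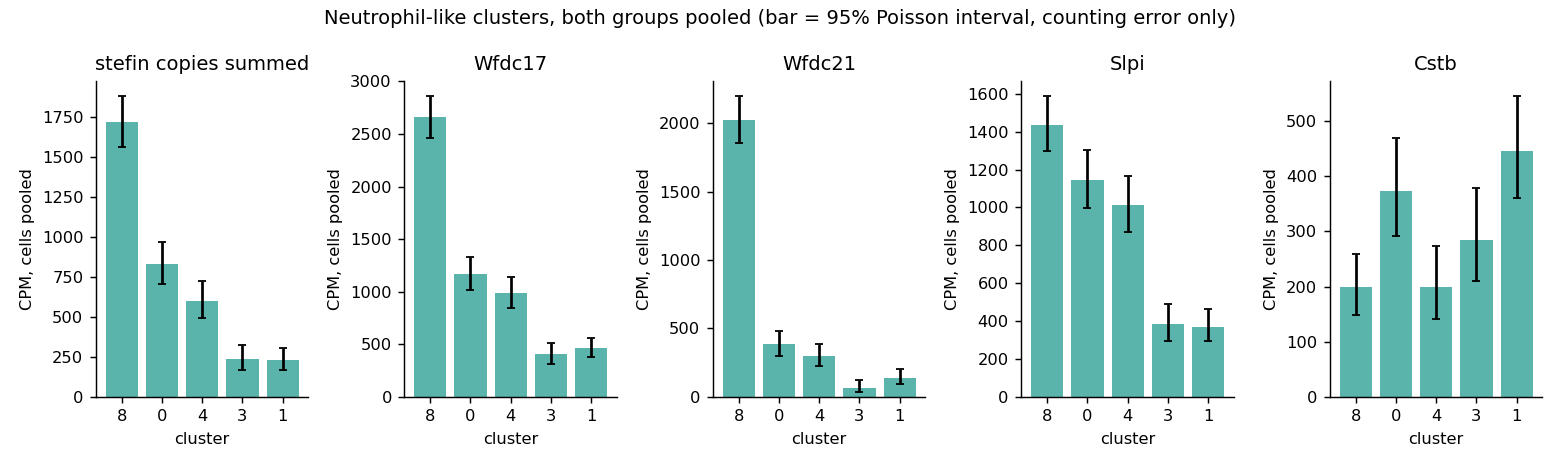
Pooled level in CPM of the stefin A sum, Wfdc17, Wfdc21, Slpi and Cstb in the 5 neutrophil-like clusters, cells of both groups pooled, with exact Poisson 95% intervals as bars. The stefin A sum stood at 1714 CPM in cluster 8 and 230.3 CPM in cluster 1, whereas Cstb stood at 198 CPM in cluster 8 and 446 CPM in cluster 1.

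The level of the stefin A copies differed between the kinds of cell in the gate. The sum was 905 CPM (842 to 972) in aGVHD and 325 CPM (249.3 to 417) in control neutrophil-like cells. In macrophage/monocyte-like cells it was 146 CPM in aGVHD and 39.7 CPM in controls, and in epithelial-like cells 65.0 CPM in aGVHD and 21.6 CPM in controls. Erythroid-like cells, at 306 CPM in aGVHD and 364 CPM in controls, held only 13 transcripts in aGVHD and 4 in controls. Dendritic cell-like cells were at 583 CPM (319 to 978) in aGVHD, from 14 transcripts, and 125 CPM in controls, from 3 transcripts. The dendritic cell-like interval in aGVHD overlaps that of neutrophil-like cells.

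Slpi was likewise highest in neutrophil-like cells, at 942 CPM in aGVHD and 792 CPM (671 to 929) in controls. Epithelial-like cells were lowest, at 130 CPM in aGVHD and 79.1 CPM in controls. Erythroid-like cells were at 566 CPM in aGVHD and 455 CPM (148 to 1061) in controls, from 24 and 5 transcripts. That control interval overlaps the one of control neutrophil-like cells. Cells of clusters given no type were at 504 CPM in aGVHD and 471 CPM in controls. Wfdc21 was at 819 CPM in aGVHD and 131 CPM in control neutrophil-like cells, and at 52.1 CPM in aGVHD and 9.92 CPM in control macrophage/monocyte-like cells. Wfdc17 was present in both, with 599 CPM in aGVHD and 139 CPM in control macrophage/monocyte-like cells. Cstb was not centred on neutrophil-like cells, at 463 CPM (372 to 570) in aGVHD and 318 CPM (217 to 448) in control macrophage/monocyte-like cells, against 302 CPM in aGVHD and 273 CPM in control neutrophil-like cells.

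Depth was equalised by thinning each cell to 500 transcripts. The share of cells with at least 1 stefin A transcript was then 1.1, 9.40 and 17.2% (lowest, median and highest) in aGVHD libraries, against 0, 3.75 and 6.67% in control libraries. The means were 9.34 ± 5.05% in aGVHD and 2.95 ± 2.70% in controls, a difference of 6.39 percentage points given as a description, and 10 of 12 aGVHD libraries were above the control mean. For the copies other than Stfa2, added after seeing the data, the means were 6.67 ± 4.34% in aGVHD and 1.65 ± 1.90% in controls. That difference of 5.02 points is also a description, because these copies were set apart after the contrast had been seen. In it 10 of 12 aGVHD libraries were above the control mean. It was 1 of 10 quantities compared by two-sided permutation within title sets. Within the dated set the shares for the copies other than Stfa2 were 7.82% in aGVHD and 2.03% in controls. In the G1 set they were 4.37% in aGVHD and 1.08% in controls, a difference that did not pass (exact permutation p = 0.171). Without thinning the shares for the whole sum were 23.3% in aGVHD and 9.62% in controls.

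Epithelial-like cells were taken as a level of background, although whether they lack stefin A was not tested. They gave a thinned share of 4.29% of 70 cells in aGVHD (exact binomial 95% interval 0.893 to 12). In controls the share was 0 of 43, which allows up to 6.98%. The median depth of epithelial-like cells was 8717 transcripts in aGVHD and 10650 in controls. Pooled neutrophil-like cells gave 15% of 515 (12 to 18.3) in aGVHD and 7.80% of 141 (3.96 to 13.5) in controls, at median depths of 2276 and 2157. In both groups the intervals of neutrophil-like and epithelial-like cells overlap.

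Per copy, Gm5483 was found in 5.62 ± 3.43% of thinned aGVHD cells and 1.48 ± 1.81% of thinned control cells (permutation p = 0.00188, unadjusted). BC100530 was found in 1.08% of aGVHD and 0.167% of control cells (permutation p = 0.0179, unadjusted), and Stfa2 in 4.36% of aGVHD and 1.52% of control cells. Wfdc21 was found in 6.93 ± 7.63% of aGVHD and 1.12 ± 1.58% of control cells (permutation p = 0.025, unadjusted), and Wfdc17 in 15% of aGVHD and 5.48% of control cells. The BC100530 share did not pass in 5 of 6 alternatives, among them neutrophil-like cells alone (permutation p = 0.0737) and thinning to 1000 transcripts (permutation p = 0.0571). The Wfdc21 share did not pass in the dated set (exact permutation p = 0.25), nor the Gm5483 share in the G1 set (exact permutation p = 0.171). Slpi did not pass, with 12 ± 4.98% in aGVHD and 10.9 ± 6.27% in controls (difference 1.08 points, permutation p = 0.665), nor did Cstb, with 7.5 ± 5.06% in aGVHD and 5.26 ± 3.61% in controls (difference 2.24 points, permutation p = 0.265).

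**Figure D5:**
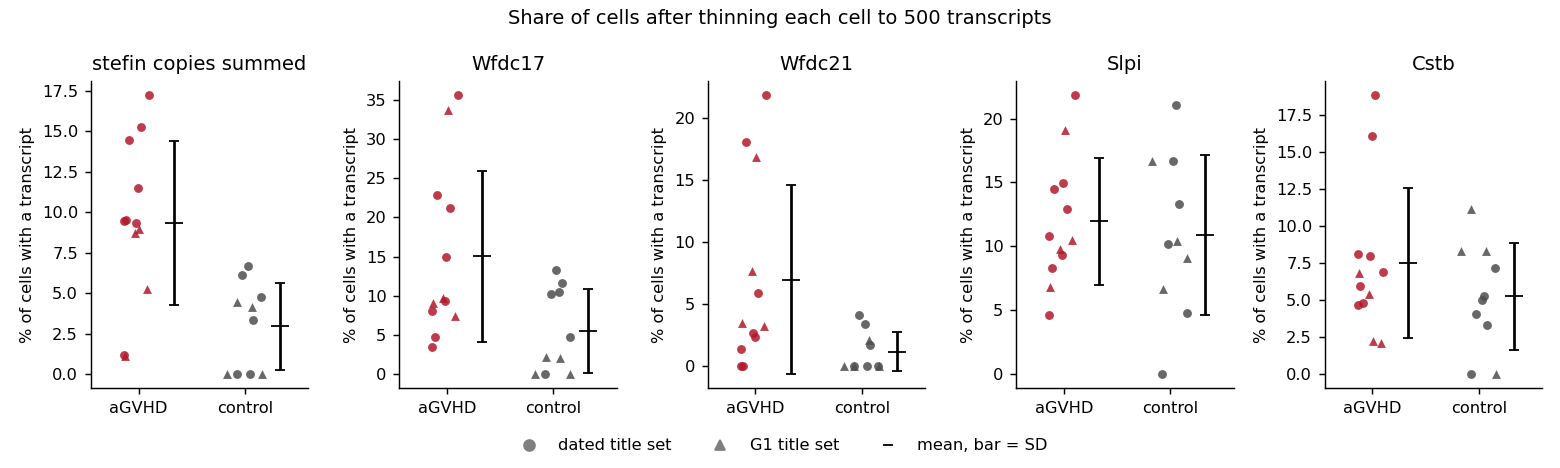
Share of cells with at least 1 transcript after thinning to 500 transcripts per cell, in percent, 1 point per library, aGVHD left of control, with the mean and SD beside the points. The stefin A sum averaged 9.34% in aGVHD and 2.95% in controls, and Slpi averaged 12% in aGVHD and 10.9% in controls.

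The members were also looked for together in single aGVHD neutrophil-like cells. After thinning, Stfa2 was found in 33.3% of cells with Gm5483 and in 5.11% of cells without it, with 15 of 515 cells holding both. Without cluster 8 these shares were 27.6% and 3.6%. Wfdc17 was found in 39.0% of cells with a stefin A transcript and 22.8% of cells without, Wfdc21 in 20.8% and 10.3%, and Slpi in 26.0% and 17.4%. Cstb went the other way, at 3.90% of cells with a stefin A transcript and 9.13% of cells without, from 3 cells holding both. Without cluster 8 the shares were 34.0% and 17.5% for Wfdc17, 6.38% and 5.12% for Wfdc21 (3 cells with both), 19.1% and 14.6% for Slpi, and 4.26% and 9.70% for Cstb. These shares are descriptions, because cells of a library share their preparation.

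The genes whose level across all 22 libraries was most like that of the stefin A sum were Fcer1g, S100a11, S100a8, Slfn1 and Klf7, with Pearson r of log2 CPM of 0.91, 0.88, 0.86, 0.86 and 0.85. Within the 12 aGVHD libraries these were 0.57, 0.83, 0.65, 0.44 and 0.62. For Wfdc17 the closest were S100a9, Retnlg, S100a8, Alox5ap and S100a6 (0.89 to 0.81), and within the 12 aGVHD libraries r was 0.81, 0.86, 0.73, 0.76 and 0.64. For Cstb they were Efhd2, Cyba, Atp6ap2, Ptk2b and Per1 (0.87 to 0.75), and within the aGVHD libraries r was 0.82, 0.42, −0.14, 0.57 and 0.88. No gene was shared by these lists apart from S100a8. The libraries share the group contrast, their depth and their share of neutrophil-like cells, so the coefficients are descriptions.

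Cysteine cathepsins, the proteases that stefins bind, were taken in 1 list of 11 genes with legumain, a cysteine protease of another family. Of these 10 had a row and 7 were tested. None was called in either direction by limma (0 of 7, against 8.03% of all genes), and the median log2 difference was 0.29, with −0.01 over all genes. Ctss, the cathepsin of antigen-presenting cells, averaged 1046 CPM in aGVHD and 1092 CPM in controls (log2 difference 0.13, limma adjusted p = 0.795). Ctsb averaged 784 CPM in aGVHD and 564 CPM in controls (0.41, limma adjusted p = 0.379), and Ctsl averaged 128 CPM in aGVHD and 74.5 CPM in controls (0.71, limma adjusted p = 0.106).

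Neutrophil serine proteases had low levels. Of 4 listed, 3 had a row and 0 passed the filter. Ctsg, cathepsin G, which Slpi inhibits, was at 0 in both groups. Prtn3, proteinase 3, averaged 9.64 CPM in aGVHD and 1.65 CPM in controls, and Prss57 averaged 1.56 CPM in aGVHD and 0.907 CPM in controls. Their transcripts are made mainly in bone marrow precursors.

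Related inhibitors were mostly low. A list of 16 further stefin and cystatin names was matched by name only. It held Cstdc4 and Cstdc5, the RefSeq names of the members Gm5483 and BC100530, and Csta2, whose row is named 2010005H15Rik. These 3 names were counted as without a row. Of the 16 names 6 had a row and 1 was tested, cystatin C (Cst3). Its level was 664 CPM in aGVHD and 876 CPM in controls (log2 difference −0.27, limma adjusted p = 0.608). Of 18 other WAP domain genes 7 had a row, and of 28 serpins and other inhibitors 23 had a row, with none of either list passing the filter. Serpina3g averaged 72.6 CPM in aGVHD and 53.0 CPM in controls, and Serpinb1a, an elastase inhibitor of neutrophils, averaged 28.5 CPM in aGVHD and 77.3 CPM in controls.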

How the data were processed

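Single cells sorted from the ileum were sequenced by CEL-Seq2 in 22 libraries, 12 aGVHD and 10 control, per the labels. The deposited values are of no standard unit. They are transcripts that the authors estimated from counts of molecular identifiers with a correction for a pool of 4096: at a tolerance of 1e-06, 0 of 1419098 values above 0 failed to match a whole identifier number. Demultiplexing used bcl2fastq 2.17.1.14 and alignment BWA 0.6.2-r126, per the submitters' processing notes. The sources used here give neither build nor strand setting.

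Values were rounded, and barcodes with at least 500 transcripts were kept. Plates were loaded by sorting, so no doublet caller was run. A filter on cells over 4 times the library median, or with over 2% Kcnq1ot1, served as an alternative. Barcode columns carry the numbers 1 to 192 in every table, so all libraries share barcode names. CPM scales a library to a common total of named transcripts: 4604 unnamed models (Gm followed by a number) were left out of totals apart from Gm5483, because they held 30.5 to 76.8% of kept transcripts. Groups came from the labels, and replicates were numbered in accession order.

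Library sums were tested with voom in limma 3.58.1 (R 4.3.3), after trimmed-mean scaling and a filter on low values (10 transcripts at the median library size), with title set and group as terms and Benjamini-Hochberg adjustment over all genes at 0.05. In a second fit 1 row replaced the stefin copies. A row for the copies other than Stfa2 was added after seeing the data. The test was checked on simulated data. Shares of cells were tested by permuting labels within title sets (100000 draws, exact where a group was under 10), and are printed unadjusted with the number tested. Clusters used the Leiden method (leidenalg 0.10.2) on 82 marker genes that exclude the members. Intervals are exact 95% Poisson or binomial intervals and, like the limit of 3 counts allowed by 0, cover counting error only.

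The members, the gene lists and the tests were chosen with earlier results of these data known. Members were all named. Of listed genes, those with the largest mean level, or with a role named beside them, were described. The numbers in the titles were not taken as pairs in the main fit, and whether they pair libraries was not settled. The genes most like Slpi across libraries are not reported here.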

Additional observations from a re-analysis of the deposited data

Results flagged for a closer look

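In 24 groups of 4 to 10 libraries examined for a single library far from the rest, 5 were found, and chance gives about 1 in 20. Gm5483 in control libraries had its highest value, 104 CPM, in replicate 2, where the next control value was 54.4 CPM. Slpi in control libraries reached 853 CPM in replicate 9, a library of 12 cells. Cstb in neutrophil-like cells of control libraries reached 748 CPM in replicate 1, over 6 libraries. BC100530 was above 0 in a single control library in 2 measures: its level in neutrophil-like cells, at 55.7 CPM over 6 libraries, and its share of thinned cells, at 1.67% over 10 libraries.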

How the results depend on the processing

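The stefin A sum in all gated cells differed by 1.73 to 2.50 in 16 alternatives, with 2.07 in the G1 set, and by 1.97 to 2.22 without each library in turn. In neutrophil-like cells the whole sum stood at 0.72 without the granule gene cluster, 1.27 among dated titles, 1.22 among G1 titles and 1.24 without the title set covariate, and at 1.11 to 1.32 without each library. Its thinned share differed by 5.67 to 7.13 points without each library and by 3.87 in the G1 set. For the copies other than Stfa2 the alternatives were chosen after seeing the data. In all gated cells these copies did not pass in the dated set (2.60), the G1 set (1.97) and libraries of at least 20 cells (2.29). They stood at 2.22 with the quality filter and at 2.27 to 2.70 without each library in turn. In neutrophil-like cells they stood at 1.85, and at 1.32 to 2.10 without each library. Their share differed by 4.37 to 5.63 points without each library and did not pass in the G1 set (3.29). For the difference between title sets the sum turned to −0.20 with libraries of at least 20 cells.

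In all, 6 values of single members turned direction: Cstb in the G1 set (−0.64), Slpi in dated neutrophil-like cells (−0.26), Cstb in G1 neutrophil-like cells (−0.52), the Slpi share in neutrophil-like cells (−3.38 points) and without control replicate 5 (−0.134, with 2.21 at the other end of such values), and the Cstb share in the G1 set (−2.79). Of 376 alternative values for single members other than Stfa2 and Wfdc17, 357 kept direction and side of the threshold, 10 lost a call and 3 gained one. The cause was not tested.

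In all gated cells 141 genes were called, against 5237 with no low-count filter, 50 in the dated set, 9 in the G1 set, 3 with at least 20 cells, 17 with the quality filter and 56 to 189 without each library (56, 70 and 90 without control replicates 1, 4 and 6). In neutrophil-like cells 3 were called, against 5 with at least 5 cells a library, 0 without the granule cluster, 6 in cells with S100a8 or S100a9, 1 in the dated set, 0 in the G1 set and 0 to 4 without each library. With the title number as a replicate block 18 genes were called, against 7 in the same libraries with no block, and the sum was 2.31 against 2.20. Correlations of same-numbered libraries were −0.071 to 0.191. No differently numbered libraries were taken as a reference, so whether the numbers pair libraries was not settled. The block left the sum's difference in place.

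Depth limits the rarer genes: control replicates with 11 or 12 cells allow 160 to 327 CPM at a count of 0.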

Other observations

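Csta2, a stefin A relative that lies between Gm5483 and Stfa1 and is listed as 2010005H15Rik, is not among the 9 genes and was looked at after the values were seen. It had a row in 14 tables, with 53 transcripts in 32 aGVHD cells (31.1 CPM) and 1 transcript in 1 control cell (1.33 CPM). It was below the filter on low values, so it has no test. In barcodes of the part of each plate taken as unused, the stefin A sum had 3 transcripts in aGVHD and 0 in controls, or 23.9 and 0 CPM. There Wfdc17 had 13 transcripts in aGVHD and 8 in controls, or 104 and 119 CPM. Pooled over kept cells Wfdc17 was at 915 CPM in aGVHD and 189 CPM in controls. What part of these levels comes from free RNA was not tested.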
